A study of Mus musculus with 15 samples.

Results

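Adipokines are proteins that fat cells release into the circulation or the surrounding tissue, and 8 of them were followed here: Adipoq, Cfd, Lep, Retn, Rbp4, Rarres2, Nampt and Apln. The members were chosen by name from the table of raw read counts, so they make up 8 of its 18804 genes, and all 8 were among the 14293 genes with enough reads to be tested. The study asked how white adipocytes respond to a cool temperature. RNA was sequenced from adipocytes grown from mesenchymal stem cells of C57BL/6J mice, which the study isolated from ears. The 3 groups had 5 libraries each and were all collected on day 16 of differentiation. Adipocytes of the day 0 group stayed at 37°C throughout, those of the day 1 group were moved to 31°C on day 15, and those of the day 12 group were moved on day 4. All 3 groups received the same induction of fat cell formation, which the sample labels give as insulin (5 μg/ml), the glucocorticoid dexamethasone (1 μM), troglitazone (5 μM), an agonist of PPARγ, and methylisobutylxanthine (0.5 mM) with 10% FBS. The day 12 cells therefore spent most of their maturation at 31°C, whereas the day 1 cells matured at 37°C, and the length of the exposure and the stage at which it began cannot be told apart. The sources used here name neither mice nor dishes behind the 5 libraries of each group, so the p-values measure only the spread between these libraries.

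The adipokines act on different tissues through different receptors. Adiponectin, the product of Adipoq, is assembled into large multimers in the endoplasmic reticulum (ER) of the adipocyte before it is released, and it raises insulin sensitivity in liver and muscle. Leptin reports the size of the fat stores to the hypothalamus, adipsin (Cfd) is a serine protease of the alternative complement pathway, chemerin (Rarres2) attracts immune cells and acts on adipocytes themselves, and retinol binding protein (Rbp4) carries vitamin A in the blood. Resistin (Retn) lowers insulin sensitivity in mice, apelin (Apln) is a peptide that acts on vessels and heart, and Nampt makes nicotinamide mononucleotide, a precursor of NAD, inside cells and is also found outside them.

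The libraries held 64648178 to 133270973 counted reads, and gene levels are given as CPM (a gene's reads scaled to a common library size) after scaling by the trimmed mean of M-values (TMM). A change was called where edgeR's quasi-likelihood test gave a Benjamini-Hochberg adjusted p below 0.05 and the fold was over 1.5. Between libraries of a group, a typical gene varied by 5.25% beyond counting error. Markers of adipocytes were present. Plin1, the lipid droplet coat protein, was at 200 CPM in day 0 cells, Lpl at 1950 CPM and Fabp4 at 828 CPM. The endothelial markers summed to at most 1.48 CPM in any library. The leukocyte marker Ptprc averaged under 0.03 CPM in every group. The macrophage and leukocyte markers as a list were higher, summing to 26.5 to 33.7 CPM at day 0. They summed to 42.4 to 48.4 CPM at day 1 and 30.0 to 34.3 CPM at day 12. The largest of them was Cd14, at 20.7, 33.9 and 23.8 CPM on average. Stromal markers were abundant, with Pdgfra at 562 CPM and Col3a1 at 6730 CPM in day 0 cells. The cultures thus held transcripts of more than mature fat cells. In RNA from whole cultures, fewer cells of a type and less RNA per cell cannot be told apart.

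The adipokines fell into sets by when their mRNA changed. Apln and Lep were lower after a single day at 31°C and stood at about the same level at day 12. Adipoq, Cfd, Rbp4 and Rarres2 were not called at day 1 but were at least 2.10-fold lower at day 12, and Nampt took the same course with a smaller change. Retn rose between day 1 and day 12. Added together, the 8 genes stood at 3460 ± 96.2 CPM (SD, n = 5) at day 0, 3440 ± 136 CPM at day 1 and 1480 ± 26.5 CPM at day 12.

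**Figure D1:**
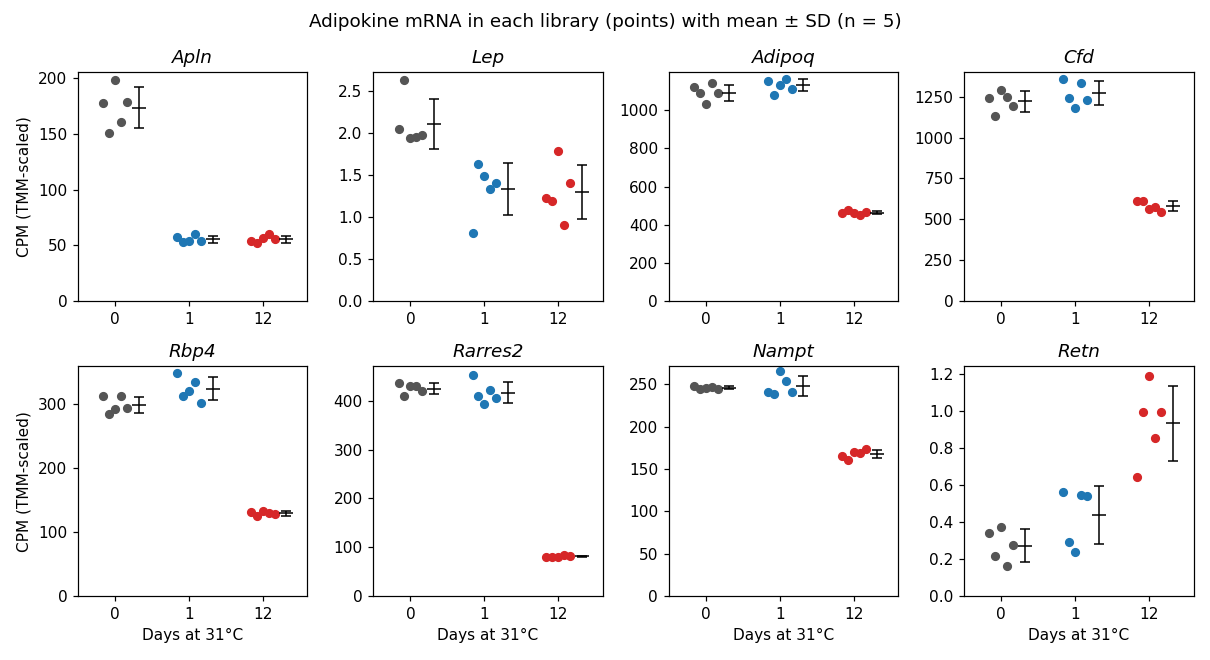
Each panel plots the CPM of 1 adipokine (linear axis from 0) in the 5 libraries of each group against days at 31°C, with the group mean ± SD in black. Apln and Lep are already low at day 1, whereas Adipoq, Cfd, Rbp4, Rarres2 and Nampt drop only at day 12 and Retn is highest there.

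After 1 day at 31°C, 1 of the 8 adipokines was called higher, against 7.71% of all tested genes, and 2 were called lower, against 13.4% (3 in either direction, 21.1% of tested genes, and 4 with no fold limit, 71.5%). The median log2 fold change of the 8 was 0.026, beside -0.0088 over all tested genes. In 2 of the 8, Apln and Lep, no day 1 library overlapped the day 0 libraries, a separation seen in 57.4% of tested genes. After 12 days, 1 adipokine was called higher (13% of tested genes were) and 6 were called lower (16.2% of tested genes were; 7 in either direction beside 29.2%, and 8 with no fold limit beside 76.6%), with a median of -1.14 beside 0.0123 over all genes. The groups did not overlap for any of the 8 at day 12, as was so for 64.6% of tested genes. Day 12 against day 1 gave 1 adipokine higher, where the share over all genes was 10.6%, and 4 lower, where it was 8.53%. In either direction 5 were called beside 19.1% of tested genes, and 6 with no fold limit beside 67.2%. In that comparison the median was -0.84, beside 0.0092, and 6 of the 8 did not overlap (52.5% of tested genes). The comparisons of day 1 and day 12 with day 0 share the same 5 day 0 libraries.

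**Figure D2:**
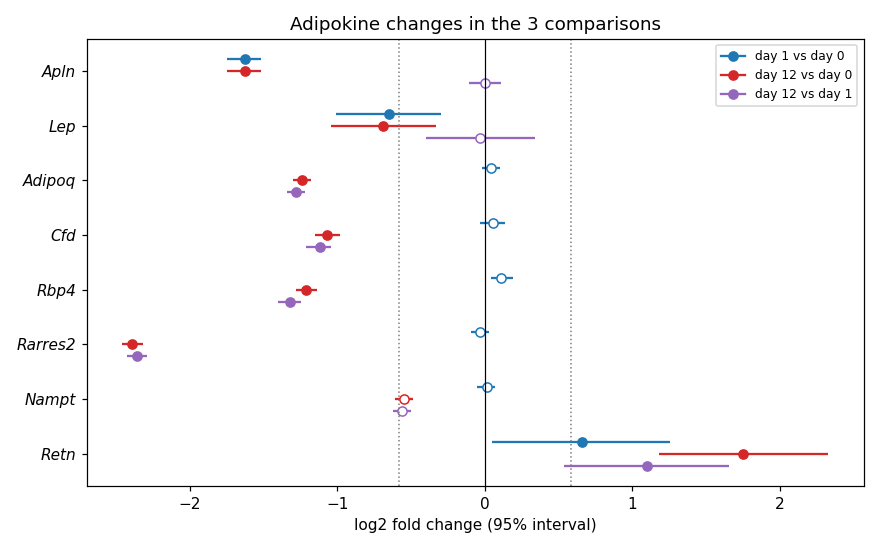
Points give the log2 fold change of each adipokine in the 3 comparisons with its 95% interval, filled where the change was called, and dotted lines mark a fold of 1.5. The day 1 and day 12 points of Apln (-1.63 and -1.63) coincide, while those of Rarres2 stand at -0.03 and -2.39.

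Apln showed the largest change of the 8 at day 1. Its level was 177, 151, 198, 160 and 178 CPM in the day 0 libraries, 57.3, 53.0, 53.7, 60.0 and 54.1 CPM at day 1, and 53.7, 52.4, 56.4, 60.1 and 55.5 CPM at day 12. Every library at 31°C was well below every library at 37°C, and the libraries of day 1 and day 12 were interleaved. Apln fell by 1.63 on the log2 scale at day 1 (SE 0.0551, adjusted p = 6.56e-18, 3.11-fold lower) and stood 1.63 below day 0 at day 12 (SE 0.0550, adjusted p = 2.44e-18). Day 12 and day 1 differed by 0.00026 on the log2 scale, with a 95% interval from -0.11 to 0.11. The gene for the apelin receptor, Aplnr, averaged under 0.1 CPM in each group and was not tested.

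Lep, the leptin gene, was expressed at a low level in these cultures, with 64 to 258 reads in a library. Its level was 2.05, 2.64, 1.94, 1.96 and 1.98 CPM at day 0, 0.819, 1.64, 1.49, 1.34 and 1.41 CPM at day 1, and 1.23, 1.19, 1.79, 0.912 and 1.41 CPM at day 12. All 10 libraries at 31°C were below all 5 at 37°C, and the day 0 spread was set mainly by replicate 2. Lep fell by 0.65 at day 1 (SE 0.172, adjusted p = 0.00162) and by 0.69 at day 12 (SE 0.172, adjusted p = 0.000897) on the log2 scale, folds of 1.57 and 1.61 that lie near the limit of 1.5. The change from day 1 to day 12 was -0.034, with an interval from -0.40 to 0.34. Without day 0 replicate 2 the day 1 change was -0.562, without day 1 replicate 1 it was -0.522, and neither was called. The day 12 change was not called when scaled by total counts (-0.496) or by reference genes (-0.47), and neither Lep call held when tested against a fold of 1.5 with glmTreat (adjusted p = 0.735 at day 1 and 0.410 at day 12).

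The 250 bases upstream of the transcription start are shown for the pair that changed at day 1 (Apln, Lep) and for 2 genes that changed only by day 12 (Adipoq, Cfd), so that the promoters of the early and the late set can be read side by side. They are RefSeq promoters on GRCm38.p6, printed 5′ to 3′ on the gene's strand with matched motifs in capitals. The Lep sequence is 1 base shorter because its gene begins 1 base earlier in GENCODE than in RefSeq.
Apln, chrX:48034854-48035103, minus strand: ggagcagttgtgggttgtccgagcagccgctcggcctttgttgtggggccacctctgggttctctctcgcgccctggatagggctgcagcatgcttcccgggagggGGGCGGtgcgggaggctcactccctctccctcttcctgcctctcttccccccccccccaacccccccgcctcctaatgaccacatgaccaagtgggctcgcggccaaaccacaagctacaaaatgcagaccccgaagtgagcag
Lep, chr6:29059971-29060219, plus strand: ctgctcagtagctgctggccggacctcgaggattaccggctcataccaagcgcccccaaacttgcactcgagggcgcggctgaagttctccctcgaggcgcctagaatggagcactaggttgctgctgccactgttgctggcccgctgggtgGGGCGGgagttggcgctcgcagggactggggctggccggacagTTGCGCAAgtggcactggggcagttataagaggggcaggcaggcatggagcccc
Adipoq, chr16:23146286-23146535, plus strand: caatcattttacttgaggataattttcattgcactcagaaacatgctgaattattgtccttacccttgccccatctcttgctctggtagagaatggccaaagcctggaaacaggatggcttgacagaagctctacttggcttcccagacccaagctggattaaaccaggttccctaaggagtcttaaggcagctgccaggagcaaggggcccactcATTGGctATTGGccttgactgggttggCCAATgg
Cfd, chr10:79890603-79890852, plus strand: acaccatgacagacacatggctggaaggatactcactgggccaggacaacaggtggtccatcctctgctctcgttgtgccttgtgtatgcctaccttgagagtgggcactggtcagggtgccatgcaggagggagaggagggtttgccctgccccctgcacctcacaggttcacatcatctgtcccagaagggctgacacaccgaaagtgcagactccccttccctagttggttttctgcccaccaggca

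The motifs searched on both strands were the TATA box TATAAA, the CCAAT box CCAAT, the C/EBP palindrome TTGCGCAA, the hypoxia response core ACGTG, the E-box CACGTG (which contains ACGTG), the nuclear receptor half-site AGGTCA and the GC box GGGCGG. Lep carried the C/EBP palindrome, whose first letter lies at -55 from the start, and this motif was found in 0.164% of 32851 mouse promoter windows of the same length. Lep also held a GC box at -98 and Apln held one at -144, a motif present in 32.7% of windows. Adipoq held 3 CCAAT boxes, at -7, -27 and -34, a motif of 33.8% of windows. No searched motif was in the Cfd window. The hypoxia response core, present in 16.6% of windows, was in none of these 4. Windows not shown, of the late genes Rbp4 (at -189) and Nampt (at -82), held it, and both lay inside the GENCODE gene. A match or its absence says nothing here about binding. RefSeq promoters were found for 7 of the 8 adipokines; Rarres2 had none.

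Among the adipokines that changed late were adiponectin and adipsin. Adipoq (16:23146536-23158028 on GRCm38, plus strand) was at 1120, 1090, 1030, 1140 and 1090 CPM at day 0, 1150, 1080, 1130, 1160 and 1110 CPM at day 1, and 462, 479, 460, 453 and 467 CPM at day 12. Day 0 and day 1 overlapped, and all day 12 libraries were far below both. The day 1 change was 0.041 on the log2 scale (interval -0.02 to 0.10, adjusted p = 0.207), and the day 12 change was -1.24 (SE 0.0291, adjusted p = 3.06e-21), a level 2.36-fold lower. Against day 1 the day 12 change of Adipoq was -1.28 (adjusted p = 5.01e-21).

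Cfd followed the same course. The levels were 1240, 1130, 1290, 1250 and 1190 CPM at day 0, 1360, 1240, 1180, 1330 and 1230 CPM at day 1, and 612, 614, 562, 574 and 546 CPM at day 12. Day 1 libraries lay within or just above the day 0 range, and the day 12 libraries were lower without overlap. The change was 0.055 at day 1 (interval -0.03 to 0.14) and -1.07 at day 12 (SE 0.0413, adjusted p = 3.61e-17, 2.10-fold lower). Adipsin cleaves factor B bound to C3b, and of 6 tested complement genes 4 were lower at day 12 (16.2% of all tested genes were), with a median of -0.88 beside 0.0123 over all genes, and 3 were lower when scaled by total counts or by reference genes. They included C3, the central complement protein, at -1.91 (18100 to 4810 CPM), and Cd55, a membrane inhibitor, at -2.01. Cfb, the substrate of adipsin, was at 2520 CPM at day 0 and 2120 CPM at day 12. That change of -0.25 was without overlap between the groups but under the fold limit, so it was not called. Cfb shares 81.6% of its exon bases with Gm20547 on the same strand, whose part in the Cfb values was not tested.

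Rarres2 showed the largest change of the 8 at day 12. Its level was 437, 409, 430, 430 and 421 CPM at day 0, 452, 410, 394, 423 and 405 CPM at day 1, and 79.6, 80.4, 79.4, 83.0 and 82.6 CPM at day 12. The first 2 groups overlapped completely and the day 12 libraries lay close together far below them. The day 12 change was -2.39 (SE 0.0333, adjusted p = 3.71e-25), a 5.25-fold lower level, and the day 1 change was -0.03 (interval -0.09 to 0.03). Rarres2 lies at 6:48569696-48572789 on the minus strand and shares 39.4% of its exon bases with Lrrc61 on the opposite strand. The sources used here do not say whether reads were counted by strand, so reads of the pair may be mixed. Lrrc61, chosen after its values were seen, was at 13.8 ± 0.61 CPM at day 0, 9.66 ± 0.73 CPM at day 1 and 12.6 ± 0.471 CPM at day 12 (SD, n = 5), with changes of -0.51 at day 1 and -0.13 at day 12, neither called. Its part in the Rarres2 values was not tested.

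Rbp4 was the adipokine with a small difference in the opposite direction at day 1. It was at 313, 285, 293, 312 and 294 CPM at day 0, 348, 313, 321, 335 and 302 CPM at day 1, and 132, 125, 133, 129 and 128 CPM at day 12. The day 1 and day 0 libraries overlapped at the edge. The day 1 change was 0.11 (SE 0.0349, adjusted p = 0.00553), under the fold limit, and the day 12 change was -1.21 (SE 0.0356, adjusted p = 1.87e-19, 2.31-fold lower). Of 8 tested genes of retinoid handling, the day 12 comparison called 1 up and 1 down, near the 13% and 16.2% of all tested genes. The higher was Crabp2, a cytosolic binding protein of retinoic acid, at 1.86 (1.06 to 3.83 CPM). The lower, named after its values were seen, was the retinoic acid receptor gene Rarb at 0.207 and 0.0983 CPM. That call was lost with DESeq2, glmTreat, total counts or reference genes. Rarb also shares 59.6% of its exon bases with Gm48162 and Top2b on the opposite strand.

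Nampt was the steadiest of the 8 at 37°C. Its levels were 248, 244, 246, 247 and 244 CPM at day 0, 241, 238, 266, 254 and 241 CPM at day 1, and 165, 161, 170, 169 and 174 CPM at day 12. The day 1 libraries surrounded the day 0 range, and all day 12 libraries were lower. The day 12 change was -0.55 (SE 0.0299, adjusted p = 2.69e-14), which is 1.46-fold lower and so just misses the fold limit, and the day 1 change was 0.012 (interval -0.05 to 0.07). Of 11 tested genes of NAD synthesis and use beside Nampt, only the NAD-consuming Cd38 was called at day 12. Over all tested genes 13% were called higher and 29.2% in either direction. Cd38 changed by 0.76 (1.94 to 3.29 CPM), and that call was lost against a fold of 1.5 with glmTreat. With no fold limit 2 of the 11 were higher and 4 lower, where 76.6% of all tested genes passed in either direction.

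Retn was the adipokine that rose, from very few reads (14 to 98 in a library). It stood at 0.341, 0.215, 0.374, 0.159 and 0.273 CPM at day 0, 0.563, 0.292, 0.239, 0.544 and 0.539 CPM at day 1, and 0.641, 0.996, 1.19, 0.855 and 0.992 CPM at day 12. Day 12 lay above the other groups without overlap, while 2 of the day 1 libraries lay within the day 0 range. Retn rose by 1.75 on the log2 scale at day 12 (SE 0.278, adjusted p = 4.05e-06, 3.37-fold higher), and by 1.10 from day 1 to day 12 (adjusted p = 0.000966, but 0.0746 against a fold of 1.5 with glmTreat, where that call was lost). The day 1 change of 0.66 (SE 0.293) passed narrowly, with an adjusted p of 0.0489. That day 1 call was lost in 10 of the 15 fits without 1 library, where the change ranged from 0.521 to 0.82, and it was 0.393 and not called within the 11 libraries of the larger library-number series.

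Levels of different genes were compared per kilobase of annotated exon. At day 0 the order was Cfd at 1320 CPM per kb, Adipoq at 847, Rarres2 at 511, Rbp4 at 243, Apln at 54.8, Nampt at 54.3, Lep at 0.648 and Retn at 0.173 CPM per kb, and only the ranges of Apln and Nampt overlapped between neighbours. At day 1 Apln dropped to 17.7 CPM per kb, below Nampt at 54.7, and Lep (0.411) and Retn (0.276) overlapped. By day 12 Rarres2 (97.4 CPM per kb) had passed below Rbp4 (105), and Retn (0.592) stood above Lep (0.400) with overlapping ranges.

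**Figure D3:**
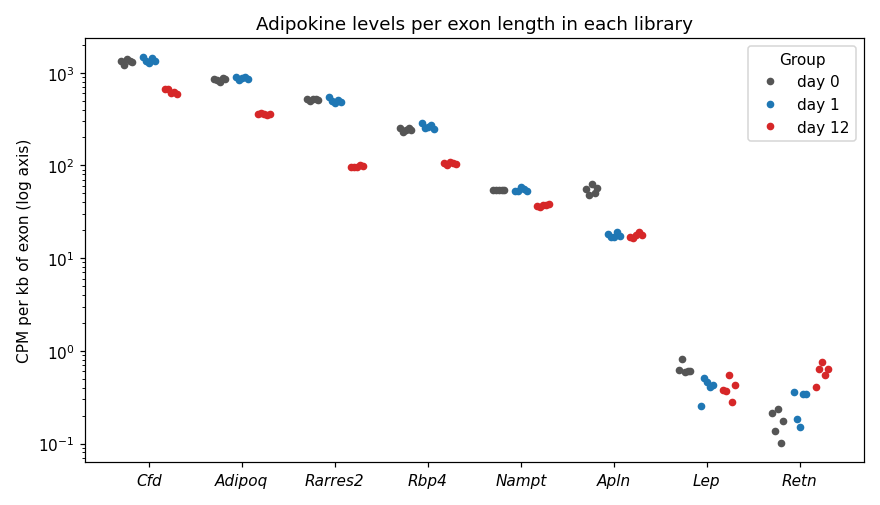
Points are the CPM per kb of exon, on a log axis, of the 8 adipokines in each of the 15 libraries, coloured by group. Cfd and Adipoq lead in all groups, Rarres2 moves from 511 to 97.4 CPM per kb, and Lep and Retn stay under 1 CPM per kb.

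Across the 15 libraries, the late set moved together. Pearson's r of log2 CPM among Adipoq, Cfd, Rbp4, Rarres2 and Nampt ran from 0.97 (Cfd with Nampt) to 0.997 (Adipoq with Rarres2), Apln with Lep gave 0.713, and Adipoq with Apln gave 0.468. These values describe libraries of the same 3 groups, so they mostly express the differences between groups. Of 12132 genes compared, the most similar to Adipoq were Rarres2 (0.9969), Cyp4v3 (0.9965) and Gm15987 (0.9956). The nearest to Cfd were Mmp11 (0.9955), Comp (0.9937) and Rpn2 (0.9936), and to Rarres2 Trf (0.9986), Gm15987 (0.9979) and Rpn2 (0.9975). Rbp4 was closest to H2-K1 (0.9959), H2-D1 (0.9957) and Gm15987 (0.9955), where the near-identical H2 genes may share reads, and Nampt to H2-T23 (0.9913), Prss35 (0.9901) and Arhgap29 (0.9892). Apln was closest to Ak4 (0.9938), Pex6 (0.9934) and Hsp90b1 (0.9921). The values were lower for Lep, with Clstn2 (0.8897), Dhrs13 (0.871) and Pdf (0.8536), and for Retn, with Pqbp1 (0.9376), Fhdc1 (0.927) and Mfge8 (0.9184), the genes with the fewest reads.

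The receptors and binding proteins of the adipokines were examined beside them. Of 11 listed, 7 were tested and 1 was called lower at day 12, a share near the 16.2% of all tested genes. With no fold limit 2 were higher and 4 lower, where 76.6% of all tested genes passed in either direction. The gene called lower was Ccrl2, which binds chemerin without signalling, at -0.88 (SE 0.190, adjusted p = 0.000206, 2.36 to 1.28 CPM). Ccrl2 was not called against a fold of 1.5 with glmTreat. The chemerin receptor Cmklr1 was at 9.08 CPM at day 0 and 6.21 CPM at day 12 (-0.55, not called). It was called lower in 1 of the 15 fits without 1 library, where the change ranged from -0.6 to -0.5. The adiponectin receptors Adipor1 (179 to 162 CPM, -0.14) and Adipor2 (241 to 172 CPM, -0.49) were not called, although their adjusted p-values were 6.66e-06 and 1.48e-13, and scaling by total counts turned Adipor1 to 0.0483. Cdh13, which binds the adiponectin multimers, was at 18.8 CPM at day 0 and 27.7 CPM at day 12 (0.56, not called), but was called higher when scaled by total counts (0.752) or by reference genes (0.777) and when day 12 replicate 5 was left out (0.599). Cap1, which binds resistin, was at 223 and 260 CPM, and Lepr, the leptin receptor gene, at 0.553 and 0.419 CPM. Gpr1, Aplnr, Stra6 and 1300002K09Rik (Rbpr2) had too few reads to test.

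Genes that fold and modify adiponectin in the ER were lower at both times. These enzymes also act on collagens and other secreted proteins. Of 12 tested, 9 were called lower at day 1 and 11 at day 12 (13.4% and 16.2% of all tested genes were), with medians of -0.77 and -0.98 beside -0.0088 and 0.0123 over all genes, and 10 or 9 were lower at day 12 when scaled by total counts or by reference genes. The day 1 count was 8 when scaled by total counts, with glmTreat or with only the 2 groups in the fit. Ero1l, the oxidase that drives disulphide bonds and the release of adiponectin, fell from 847 to 259 and 113 CPM, by 1.71 at day 1 (SE 0.0637) and by 2.91 at day 12 (SE 0.0669) on the log2 scale. Erp44, which retains adiponectin until it is assembled, went from 110 to 61.4 and 67.0 CPM (-0.84 and -0.71), and Gstk1, also known as DsbA-L, from 31.7 to 17.2 and 15.8 CPM (-0.88 and -1.01). Ero1lb, a paralog of Ero1l, went from 20.8 to 12 and 11 CPM (-0.79 and -0.91). These changes were all called, but that of Erp44 at day 12 was not under either of those scalings.

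The lysine hydroxylases of its collagen-like domain took the same direction. Plod1 changed by -0.32 at day 1, which was not called, and by -0.84 at day 12, Plod2 by -0.75 and -1.60, and Plod3 by -0.59 and -1.11, where Plod3 shares 16.1% of its exon bases with Znhit1 on the opposite strand and lost its day 1 call in 4 of the 15 fits without 1 library. Glt25d1, the galactosyltransferase now named Colgalt1, changed by -0.85 and -0.96. Of the disulphide isomerases, Pdia6 went from 608 to 254 CPM at day 1 (-1.26) and Pdia4 from 413 to 249 CPM (-0.73), Pdia3 from 1340 to 1050 and 773 CPM (-0.35, not called, and -0.80, not called when scaled by reference genes), while P4hb was at 1230, 1150 and 962 CPM and was not called at either time. Adipoq mRNA itself differed from day 0 by 0.041 on the log2 scale at day 1.

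**Figure D4:**
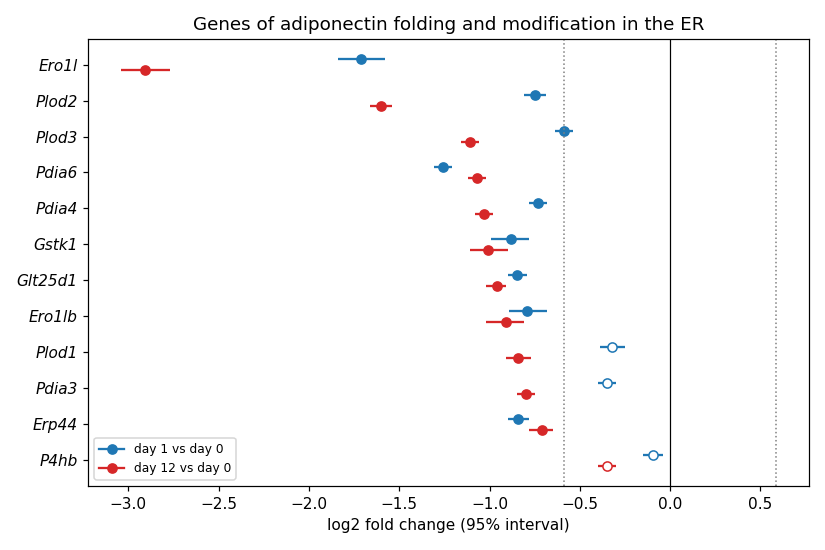
Points show the log2 fold change, with its 95% interval, of 12 genes of adiponectin folding and modification at day 1 and day 12 against day 0, filled where called, with dotted lines at a fold of 1.5. All 24 points lie left of 0, and Ero1l is farthest, at -1.71 and -2.91.

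Other secreted factors of adipocytes changed in both directions. At day 1, 2 of 23 tested rose and 2 fell, where the shares of all tested genes were 7.71% and 13.4%. After 12 days 4 rose and 8 fell, where they were 13% and 16.2%, with day 12 medians of -0.14 for the list and 0.0123 for all genes. Scaled by total counts or by reference genes, 6 rose and 8 fell and the list median was 0.0488 or 0.0739. Igf1, a growth factor, took the course of the late adipokines, at 223, 215 and 76.2 CPM (-0.05 and -1.55), and so did C1qtnf3, an adiponectin paralog, at 2.47, 2.97 and 0.510 CPM (0.26 and -2.27). Gdf15, a stress-induced cytokine, was at 8.42, 6.38 and 1.58 CPM (-0.40, not called, and -2.42). Vegfa, the vessel growth factor, was lower at both times (292, 154 and 95.5 CPM, -0.92 and -1.61). The factors that rose included the adiponectin paralog C1qtnf7 (10.4, 34.4 and 37.4 CPM, 1.73 and 1.85) and Il6 (31.3, 42.8 and 74.6 CPM, 1.25 at day 12). Of 5 tested enzymes that cut or inactivate adipokine peptides, Plat and Plau, proteases that can process prochemerin, were higher at day 12 at 0.87 and 0.70, and the call of Plau was lost with glmTreat.

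Marker genes of the cells in the culture moved with day 12 as well. Over all tested genes, 13% were called higher and 16.2% lower at day 12, and the counts of small lists below stand beside these shares. Of 10 adipocyte markers that are not adipokines, 1 was called higher at day 12 (Fabp4, 0.97) and 4 lower (Cidec, Dgat2, Slc2a4 and Pparg, from -1.59 to -0.59), with a median of 0.022. Under scaling by total counts or by reference genes it was 3 higher and 1 lower. The summed CPM of these 10 markers was 4630 to 5200 at day 0, 5630 to 6330 at day 1 and 5760 to 6360 at day 12, of which Lpl, Fabp4 and Plin4 made up 2110, 1620 and 1370 CPM on average at day 12. All 8 markers of dividing cells were higher at day 12 (median 2.01), and their summed CPM rose from 56.1 to 69.5 at day 0 to between 182 and 221. Of 9 tested stromal markers 3 were called lower at day 12, with 4 changes above 0, 5 below 0 and a median of -0.092. The median was 0.10 or 0.126 when scaled by total counts or by reference genes. The summed CPM of the stromal list went from 10800 to 11300 at day 0 to between 7270 and 7710. Col3a1 (6730 to 3900 CPM) and Col1a1 (2650 to 1970 CPM) went down, while Pdgfra (562 to 712 CPM) and Pdgfrb (131 to 184 CPM) went up. Among 5 cartilage markers, 3 were lower and 1 higher, led by Comp (3720 to 919 CPM). Of 5 tested macrophage and leukocyte markers 2 were higher (summed 26.5 to 33.7 CPM at day 0, 30.0 to 34.3 CPM at day 12), of 5 mesothelial markers 1 was higher (Msln, 0.628 to 29.3 CPM, with Wt1 at 0 CPM at day 12), of 3 endothelial markers 2 were higher, and the single tested keratinocyte marker, Trp63, was not called, with Krt5 and Krt14 at 0 CPM at day 12. The part of these markers in the adipokine changes was not tested.

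**Figure D5:**
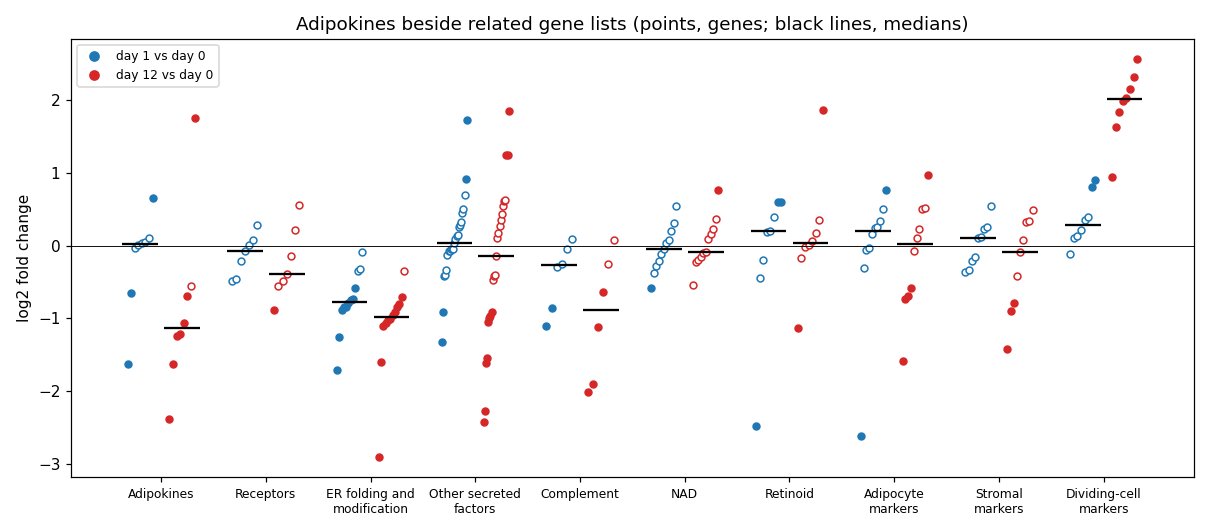
Points are genes of the adipokine list and of 9 related or marker lists, plotted by log2 fold change at day 1 and day 12 against day 0, filled where called, with black lines at the list medians. The adipokine median moves from 0.026 to -1.14, that of the adipocyte markers from 0.20 to 0.022 and that of the dividing-cell markers from 0.29 to 2.01.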

How the data were processed

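The authors aligned reads to UCSC mm10 with TopHat2 2.0.13 and Bowtie2 2.2.1, and deposited raw read counts per gene made with HTSeq. Whether counting used strand is not given in the sources used here. The deposited rlog values and the authors' DESeq2 tables, which hold their fold changes and p-values, were not used. The 15 libraries were grouped by their labels, and the table held no other sample columns. The adipokines and related lists were chosen with earlier results of these data known. Genes were filtered with filterByExpr (minimum count 10), scaled by TMM and fitted over the 3 groups with edgeR 4.0.16 (quasi-likelihood test, R 4.3.3), and p-values were adjusted over 14293 genes. An SE is the log2 fold change over the root of F. DESeq2 1.42.0, limma 3.58.1 voom, other scalings and filters and leaving out each library were alternatives. The scripts were tested on simulated counts. Each library was counted as its own sample. Libraries of a group differed beyond sampling noise, but dishes of 1 isolation could do so too, so this does not show that they are independent. Positions and exon lengths came from GENCODE vM21 on GRCm38, the build of mm10. The text names the 8 adipokines, the 3 genes most correlated with each (over a mean of 1 CPM), the receptor and ER genes, up to 6 called genes of each other list with the largest day 12 change and a mean of at least 1 CPM, and defining markers. Other list members named without a call were chosen after their values were seen. The values of 1 gene of a related list are not reported here.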

Additional observations from a re-analysis of the deposited data

Results flagged for a closer look

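The Lep level of day 0 replicate 2, 2.64 CPM, stood apart from the other 4 day 0 libraries: its gap to the nearest was 0.844 of the group's range and passed Dixon's test at the 95% level. It was the only such value among the 24 groups of 5 checked (8 genes in 3 groups), and chance flags about 1 group in 20.

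For 5 adipokines the change against day 0 differed between day 12 and day 1, tested as the log2 fold change of day 12 against day 1 with edgeR's quasi-likelihood test. It was -1.28 for Adipoq, -1.12 for Cfd, -1.32 for Rbp4, -2.36 for Rarres2 and 1.10 for Retn (not called against a fold of 1.5 with glmTreat), and in each case all 5 day 12 libraries lay beyond all 5 day 1 libraries. For Nampt the same difference was -0.56, under the fold limit.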

How the results depend on the processing

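Of 669 alternative values for the adipokine changes, 627 kept direction and call, 24 lost the call, 3 gained it and 15 changed sign. The number of adipokines called at day 1 was 3, but 1 when tested against a fold of 1.5 with glmTreat. It was 2 with limma voom, without the low-count filter and with a mean of 1 CPM required. Fitting only the 2 groups, the replicate block and the library-number series as covariate also gave 2. The number was 1 to 3 when 1 library was left out, with 1 without day 0 replicate 2 or without day 1 replicate 1. The counts called at day 12, 7 against day 0 and 5 against day 1, stayed within 1.5 times under every alternative run. The sign changes were all of changes near 0 that were not called. Apln from day 1 to day 12 was -0.00758 with DESeq2, -0.00764 with DESeq2's size factors, -9.65e-06 with the replicate block and -0.0277 to 0.0285 without 1 library. Lep in the same comparison was 0.138 scaled by total counts, 0.185 scaled by reference genes and -0.169 to 0.0633 without 1 library, and Nampt at day 1 was -0.00333 when genes under 1 CPM on average were dropped and -0.0116 to 0.0277 without 1 library. Scaling by total counts or by 4 reference genes moved the median of all genes at day 12 from 0.0123 to 0.205 and 0.23, and the lower share of called genes from 55.6% to 35.9% and 33.5%. From day 1 to day 12 that share went from 44.7% to 27.3% and 23.4%. With these scalings the day 12 call of Lep was lost (-0.496 and -0.47), Adipor1 became 0.0483 and 0.0731 and Lrrc61 0.0636 and 0.0877. The Retn call at day 1 was also lost with limma voom (0.614), without the low-count filter (0.659) and with the replicate block (0.662, adjusted p = 0.0685). Fitting only the 2 groups or adding the library-number series as covariate lost that call as well. Retn was not tested where a mean of 1 CPM was required. Without the fold limit Nampt was called at day 12 and Rbp4 at day 1. Same-numbered libraries did not deviate together (15 pairs, correlations -0.0255 to 0.0436), so the numbers do not pair them, and the block changed no other adipokine call. Within the 11 libraries of the larger library-number series the counts called were 2, 7 and 5. Lep and Retn, at 14 to 258 reads a library, are the adipokines that depth limits.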
